A study of Mus musculus with 4 samples.

Results

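Chromatin regulators are the enzymes and complexes that write, remove and read chemical marks on histones and DNA or that move nucleosomes. In satellite cells, which are the stem cells of muscle, Polycomb repressors, histone deacetylases and DNA methyltransferases are known to hold genes of other lineages and of differentiation silent, while acetyltransferases and SWI/SNF remodellers work with myogenic factors when muscle genes are switched on. Some of these factors are tied to DNA replication: Uhrf1 recruits Dnmt1 to newly copied DNA, Hells opens chromatin for DNA methylation, and Ezh2 is the Polycomb enzyme that predominates in dividing cells, with Ezh1 more prominent in resting ones. The 45 genes described here cover these classes and were chosen by function. The platform's annotation gave 44 of them a probe set of their own, of 18193 genes named on the array, and their 100 probe sets are part of 45101. A total of 43 genes, with 85 probe sets, passed a filter on dim signals. It kept a probe set when its mean log2 signal over all 4 arrays reached the median (a signal of 63.9). Hdac9 did not pass, and the expression of Suv39h1 is not analysed here, though its promoter is counted below.

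Satellite cells were sorted without culture from mice aged 10 weeks, 2 weeks after tamoxifen, as YFP-positive cells. All mice carried a tamoxifen-dependent Cre at 1 Pax7 allele (labelled Pax7-CreERT2 and Pax7Cre/+) and Rosa-YFP/YFP, so that Cre acts where Pax7 is expressed and the reporter marks recombined cells. Control mice were Calcr +/+ and knockout mice Calcr flox/flox (Calcr-cKO, here cKO), Calcr being the calcitonin receptor gene. Each group has 2 biological replicates on 1 array each, and the labels do not say whether a replicate pooled mice; the comparison asks which transcripts differ after loss of Calcr. Values are MAS5 signals, linear intensities per probe set.

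Calcr itself read 1268 and 1424 in control and 568 and 684 in cKO, lower on both cKO arrays. Array medians ran from 57.8 to 70.4. The satellite cell markers Pax7, Myf5, Myod1, Cdh15, Itga7, Vcam1, Chrdl2, Sdc4, Cd34 and Des all passed the filter (10 of 10), and their summed signal ran from 19182 to 25316.5 in control and from 18599 to 18700 in cKO, without overlap. Of these markers 4 were lower on both cKO arrays (Myod1, Chrdl2, Sdc4 and Cd34) and 0 higher on both. Of all genes past the filter, 12.1% were lower and 8.53% higher in this way. Chrdl2 read 999 and 2086 in control and 476 and 91.3 in cKO, and without it the summed signals of the groups overlap. Endothelial markers stood apart by replicate number in both groups: the summed signal of 16 genes was 13255 and 12412 on the arrays numbered 1 (control, cKO) against 1450 and 1688 on those numbered 2, and 15 of the 16 were at least 2-fold brighter on the former in both groups. Pericyte markers did so for 8 of 12. The summed leukocyte signal (20 genes, 8 past the filter, with the T cell gene Cd3e near 0) was highest on control 2, at 3412, and lowest on cKO 2, at 797. Fibro-adipogenic and muscle fibre sums overlapped between the groups. Their part in the results below was not tested. In whole-sample RNA, fewer cells of a type and less RNA per cell cannot be told apart.

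No chromatin regulator passed the test between cKO and control. Of 10140 genes compared by limma on log2(signal + 1), each by its brightest probe set, 0 (0%) had an adjusted p under 0.05, and the smallest adjusted p was 0.99999. At an unadjusted limma p under 0.05 there were 0 of 43 members in either direction, where 0.72% of all genes were so, 0.266% higher and 0.454% lower. Of the 43 members, 19 were higher in cKO (42.7% of all genes were) and 24 lower (57.3%). Their median log2 difference was -0.04, and that of all genes was also -0.04. Only Uhrf1 lay more than 1.5-fold apart, as did 5.64% of all genes. The 95% confidence intervals of the members' log2 differences reached from 0.30 to 1.16 on either side of the estimate, with a median of 0.75, and every one of the 43 crossed 0. For 38 of them the interval holds a difference of 1.5-fold in at least 1 direction, so absence of a change is not shown. For 1 gene, 4 arrays allow an exact permutation test no 2-sided p below 0.333.

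**Figure D1:**
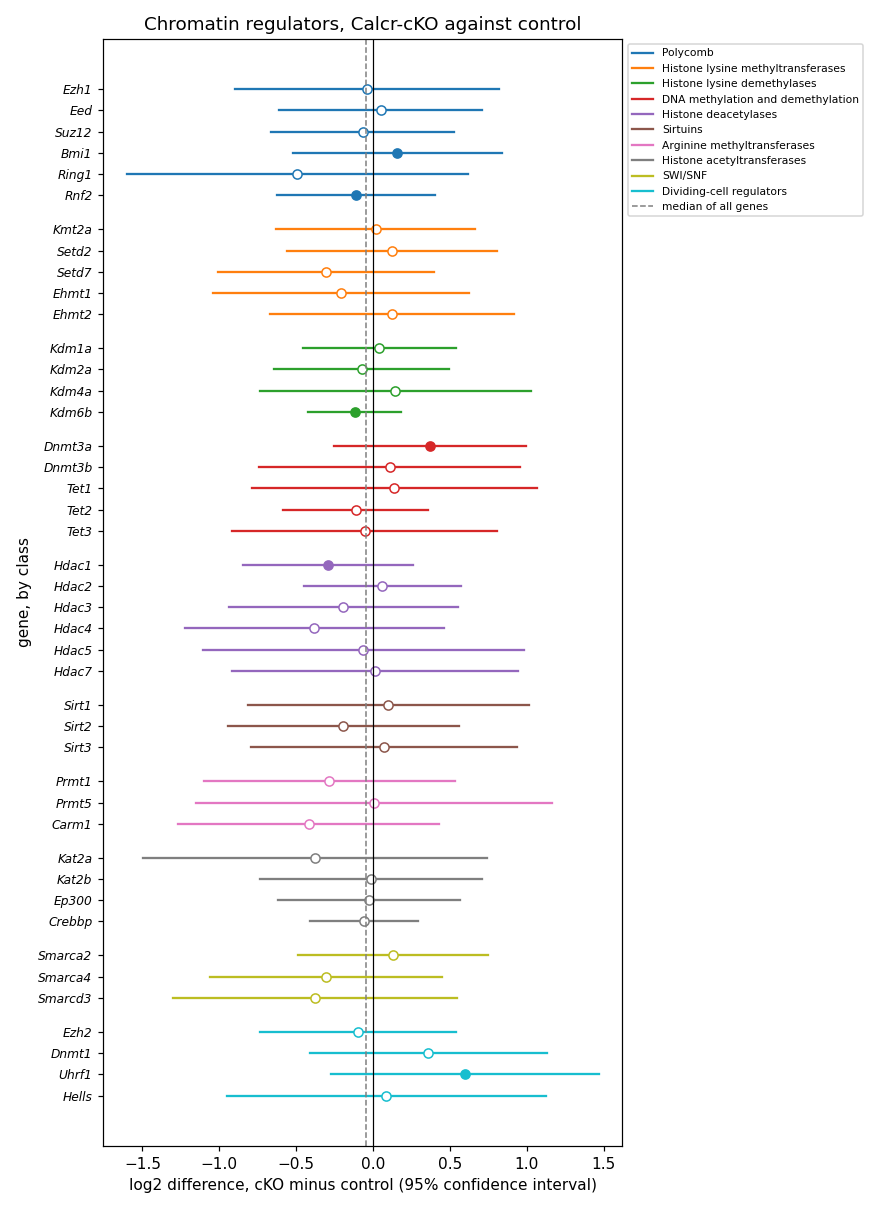
Log2 difference in MAS5 signal (cKO minus control, horizontal axis) of the 43 members by class, with 95% confidence intervals from limma; filled points mark the 6 genes whose arrays did not overlap between groups, and the dashed line is the median of all genes, -0.04. Every interval crosses 0, and Uhrf1 lies farthest to the right, at 0.60.

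The arrays of the groups did not overlap for 6 of the 43 members, against 20.6% of all genes. The cKO arrays were brighter for 3 of them, Uhrf1, Dnmt3a and Bmi1, against 8.53% of all genes, and dimmer for 3, Hdac1, Kdm6b and Rnf2, against 12.1%. Each direction thus held 6.98% of the members, 3 genes each, and whether this differs from the shares of all genes was not tested. Dnmt3a, Bmi1, Uhrf1 and Hdac1 were without overlap also after quantile normalization and after centring each array on its median. Kdm6b and Rnf2 overlapped in both of those. Other members lost their overlap: Dnmt1 was higher on both cKO arrays with either scaling, and Ezh2 lower with quantile normalization. With centring, Kdm1a was higher and Smarca4 lower on both cKO arrays. Shares of all genes without overlap are given for the unscaled signals only, so no excess of members is read from the scaled ones. Both scalings raised the median log2 difference of all genes, from -0.04 to 0.016 and 0.050, and signs near 0 turned with it: 24 of 43 members and 53.0% of all genes were higher after quantile normalization, and 27 of 43 and 58.3% after centring.

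The regulators of dividing cells were not called, and 3 of the 4 were brightest on cKO 1. Uhrf1, which binds hemimethylated DNA behind the replication fork, read 252 and 353 in control and 574 and 357 in cKO, a 1.52-fold difference between group means on the log scale (log2 difference 0.60, SE 0.37, adjusted p = 0.99999). Its cKO 1 value was far above the rest, and cKO 2 lay just above control 2. Dnmt1, the maintenance DNA methyltransferase, read 374 and 471 in control and 648 and 449.5 in cKO, so cKO 1 was again the brightest array and cKO 2 lay between the controls. The log2 difference of Dnmt1 was 0.36 (95% confidence interval -0.41 to 1.13). Hells, a helicase of the SNF2 type that aids DNA methylation, read 67.4 and 64.5 in control and 90.1 and 54.4 in cKO, dim on every array, with cKO 1 highest and cKO 2 lowest. Ezh2, the methyltransferase of Polycomb repressive complex 2, read 629 and 652 in control and 637 and 563 in cKO and hardly varied apart from the lower cKO 2 value.

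Without cKO 1, the median log2 difference of these 4 genes was -0.04, and with all arrays it was 0.22. The log2 difference of Uhrf1 became 0.26 without cKO 1 and 0.94 without cKO 2. That of Dnmt1 became 0.098 and 0.62. Other probe sets did not point elsewhere: both sets of Uhrf1 had cKO above control on all arrays, the dimmer at 133 and 159 against 174 and 161, and all 3 sets of Dnmt1 were higher in cKO, by 0.25 to 0.43 on the log2 scale. Directions of Uhrf1, Dnmt1 and Ezh2 were the same with quantile normalization and with centring.

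Transcripts of dividing cells, from a list chosen by function with earlier results known, were for the most part higher in cKO. Of 20 genes past the filter, 16 were higher in cKO and 4 lower, and for 13 of them (65%, against 8.53% of all genes) neither control array reached the cKO values. At an unadjusted limma p under 0.05, 4 of the 20 were higher and 0 lower (0.266% and 0.454% of all genes), and none passed after adjustment. Mki67, the proliferation antigen, read 1404 and 1257 in control and 2427 and 1971 in cKO and was among those 4. Of the others, Gins1, of the replicative helicase, and Stmn1, a microtubule regulator, read 57.4 and 34.6 in control and 91.0 and 152 in cKO, and 1952 and 2091 in control and 3068 and 2539 in cKO, respectively. Both control values of Gins1 lay under the filter signal of 63.9, so Gins1 passed the filter only through its cKO arrays. Gins1 stands in every count given here of these transcripts as higher in cKO, and each such count would be smaller without it. It is no support for them. Set against the control of the same number, 20 of the 20 were higher on cKO 1 (median log2 difference 0.70) and 13 of the 20 on cKO 2 (median 0.28), where 61.7% and 32.2% of all genes were higher (medians 0.095 and -0.19). The 7 lower on cKO 2 than on control 2 were the replicative helicase genes Mcm2, Mcm3, Mcm4, Mcm5, Mcm6 and Mcm7 and the sliding clamp gene Pcna, named here after their values were seen. Of the chromatin regulators of dividing cells, 4 of 4 were higher on cKO 1 (median 0.60) and 1 of 4 on cKO 2 (median -0.14). The numbers are names in the labels that do not by themselves pair the arrays.

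**Figure D2:**
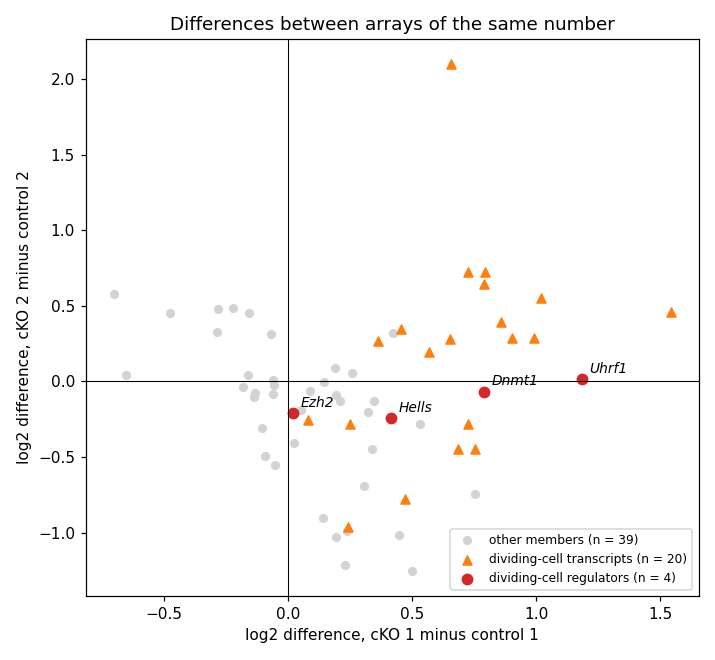
Log2 difference cKO 1 minus control 1 (horizontal axis) against cKO 2 minus control 2 (vertical axis) for single genes. The 20 dividing-cell transcripts (triangles) all lie to the right of 0 and 13 of them also above it, and Uhrf1, Dnmt1, Hells and Ezh2 (red) lie near or below 0 on the vertical axis.

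The promoters of these regulators are shown because E2F-type sites are known from genes of DNA replication. Promoter sequence was not used to choose the genes. They were set apart as regulators of dividing cells, however, so motif and genes were not chosen independently. RefSeq windows of GRCm38.p6 hold 250 bases before to 50 after each start; 40 of the 45 genes had one. For a gene with several listed starts, the one with most CG dinucleotides is printed (of 3 for Dnmt1 and 2 for Uhrf1). Capitals mark the E2F-type motif TTTNNCGC and the CCAAT box, CCAAT, on either strand, which may touch or overlap.
Uhrf1, chr17:56304063-56304362, plus strand: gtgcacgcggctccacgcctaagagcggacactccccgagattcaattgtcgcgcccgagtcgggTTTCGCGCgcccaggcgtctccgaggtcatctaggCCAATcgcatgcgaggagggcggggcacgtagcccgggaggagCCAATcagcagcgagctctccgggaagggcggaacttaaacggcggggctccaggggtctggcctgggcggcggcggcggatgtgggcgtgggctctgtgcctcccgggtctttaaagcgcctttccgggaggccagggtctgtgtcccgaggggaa
Dnmt1, chr9:20952574-20952873, minus strand: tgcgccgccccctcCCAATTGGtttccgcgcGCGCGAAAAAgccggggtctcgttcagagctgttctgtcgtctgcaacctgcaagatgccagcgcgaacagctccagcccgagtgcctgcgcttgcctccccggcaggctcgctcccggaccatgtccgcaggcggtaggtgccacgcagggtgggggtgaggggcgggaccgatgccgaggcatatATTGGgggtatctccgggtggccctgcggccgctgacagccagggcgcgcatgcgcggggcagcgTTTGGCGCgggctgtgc
Hells, chr19:38930740-38931039, plus strand: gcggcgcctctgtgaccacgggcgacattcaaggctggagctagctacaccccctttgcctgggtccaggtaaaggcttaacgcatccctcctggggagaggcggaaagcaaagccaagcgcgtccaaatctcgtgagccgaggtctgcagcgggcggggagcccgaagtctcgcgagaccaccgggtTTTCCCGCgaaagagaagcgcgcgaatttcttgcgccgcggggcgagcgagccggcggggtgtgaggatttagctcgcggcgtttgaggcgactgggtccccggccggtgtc
Ezh2, chr6:47594981-47595280, minus strand: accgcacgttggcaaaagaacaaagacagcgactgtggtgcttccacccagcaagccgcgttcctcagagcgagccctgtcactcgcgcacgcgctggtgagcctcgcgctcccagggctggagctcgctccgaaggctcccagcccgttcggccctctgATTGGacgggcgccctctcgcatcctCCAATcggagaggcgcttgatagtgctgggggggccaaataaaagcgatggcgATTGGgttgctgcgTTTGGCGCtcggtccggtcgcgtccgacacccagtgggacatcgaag

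Each of the 4 printed windows holds the E2F-type letters, while the other listed starts of Dnmt1 hold none. Ezh2 has TTTGGCGC just after the start, Uhrf1 has TTTCGCGC and Hells TTTCCCGC before it, and Dnmt1 has 3 matches, of which 2 overlap. The CCAAT box occurs 3 times each in Ezh2 and Dnmt1, 2 times in Uhrf1 and not in Hells. Over all genes, 5.9% of 27025 had the E2F-type letters at 1 or more listed starts; since the motif holds a CG, the share among the 3497 genes with at least 30 CG dinucleotides in a window was 10.9%. Of the other members, 5 of 36 had it (Ep300, Kat2a, Sirt3, Suv39h1 and Suz12). The CCAAT box was in 41.1% of all genes and in 13 of those 36, and the cell cycle homology region TTTGAA in 20.2% and in 5 of 36. Of the 4 dividing-cell regulators, 1 had TTTGAA: Dnmt1, at a start that is not printed. A match is a run of letters, and binding was not measured.

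Among the other DNA methylation genes, Dnmt3a was higher on both cKO arrays, without passing the test. Dnmt3a, which sets methyl groups on unmethylated DNA, read 568 and 567 in control and 762 and 709 in cKO, with the control arrays almost equal and both cKO arrays above them. Its log2 difference was 0.37 (SE 0.27, adjusted p = 0.99999). All 5 probe sets of Dnmt3a were higher in cKO, 3 of them without overlap, but by amounts from 0.0028 to 0.54 on the log2 scale. The set with the largest difference read 156 and 236 in control and 271 and 289.7 in cKO, while another read 339 and 284 against 274 and 352 and overlapped. With 1 array left out, the log2 difference of the brightest set ran from 0.32 to 0.42. Its sign could not change there, because the arrays of the groups did not overlap. Dnmt3b, the related enzyme, read 114 and 149 in control and 146 and 136 in cKO, with both cKO arrays between the controls.

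The Tet genes encode dioxygenases that oxidise methylcytosine, the first step of its removal. Tet2 read 1792 and 1571 in control and 1577 and 1531 in cKO, and its dimmer probe set read 443 and 444 against 362 and 315, lower on both cKO arrays. Tet3 read 147 and 213 in control and 186 and 157 in cKO, and Tet1 66.7 and 76.5 in control and 76.2 and 81.3 in cKO. Both overlapped between the groups, and the 2 kept probe sets of Tet1 differed in sign. The class as a whole, without the dividing-cell genes, counted 3 genes of 5 that were higher, and its median was 0.11 (4 of 5 with either scaling).

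Polycomb genes split between a member that was higher and one that was lower. Bmi1, a subunit of Polycomb repressive complex 1 known for repressing the Cdkn2a locus, read 429 and 444 in control and 514 and 463 in cKO, and its other probe set 269 and 243 against 359.9 and 335. Both sets lay higher on both cKO arrays, by 0.16 and 0.44 on the log2 scale. Rnf2, the ubiquitin ligase of the same complex, read 1231 and 1214 in control and 1119.8 and 1149 in cKO, lower on both cKO arrays (log2 difference -0.11). Its 2 other kept sets overlapped: one differed by -0.0091, and the dimmest, at 93.7 and 66.6 in control and 70.9 and 42.1 in cKO, by -0.52. Ring1, the paralogue of Rnf2, read 194 and 493 in control and 227 and 212 in cKO: control 2 stood alone and the other 3 arrays were close together.

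Of the members of Polycomb repressive complex 2, which methylates histone H3 at lysine 27, none separated the groups. Its scaffold Suz12 read 1033 and 949.9 in control and 1071 and 834 in cKO, and all 5 kept probe sets of Suz12 were lower in cKO on average but overlapping. Eed, the subunit that binds the methyl mark, read 524 and 641 in control and 599.8 and 601 in cKO. Ezh1, the alternative catalytic subunit, read 286 and 416 in control and 275 and 409 in cKO; here the arrays numbered 2 were the brighter ones in both groups, and the genotypes gave nearly the same pair of values. In all, 2 of 6 Polycomb genes were higher and 4 lower (median -0.054), and Suz12 and Ezh1 changed sign with a scaling.

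Histone methyltransferases overlapped throughout, 3 of 5 higher and 2 lower (median 0.017). Kmt2a, which methylates histone H3 at lysine 4, read 853 and 701 in control and 698 and 878 in cKO, and Setd2, the enzyme for lysine 36, read 669 and 499 in control and 638 and 621 in cKO. The lysine 9 methyltransferases Ehmt1 and Ehmt2 read 183 and 252 in control and 169.5 and 204 in cKO, and 529 and 957 in control and 765 and 787 in cKO. In Ehmt2 the spread between the control arrays was larger than any difference between groups. Setd7, a lysine methyltransferase of histones and other proteins, read 845 and 786 in control and 536 and 808 in cKO, low on cKO 1 alone; its other probe set was lower on both cKO arrays, at 471 and 478 against 428 and 351.

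Among demethylases, 3 of the 4 genes, Kdm6b, Kdm1a and Kdm2a, had kept probe sets of both signs. Kdm6b, which removes lysine 27 methylation, was bright: its brightest probe set read 4695 and 4359 in control and 4264 and 4063 in cKO, a log2 difference of -0.12 (95% confidence interval -0.43 to 0.18). A second set read 972 and 628 in control and 1176 and 1365 in cKO, higher on both cKO arrays (log2 difference 0.70, limma adjusted p = 0.99999). It was the only 1 of the 85 member probe sets at an unadjusted limma p under 0.05. Of all genes, each by its brightest set, 0.72% were so, and whether the member share differs was not tested. The remaining set read 382 and 376 against 449.7 and 231. The sets thus gave no common direction, and 1 more that also names another gene was left out.

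Kdm1a, the lysine 4 demethylase, read 1589.5 and 1598 in control and 1837 and 1463 in cKO on its brightest set and 895 and 799 against 755 and 606 on the other, which was lower on both cKO arrays. Kdm2a, of lysine 36, read 955 and 1096 in control and 914 and 1035 in cKO, and 5 of its 6 kept sets were lower in cKO, with log2 differences of the 6 from -0.63 to 0.41. Kdm4a, which acts on lysines 9 and 36, read 123 and 108 in control and 109.9 and 148 in cKO. The brightest sets of these 3 genes all overlapped between the groups.

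Histone deacetylases had 2 of 6 members higher and 4 lower, with a median of -0.13. Hdac1, a class I enzyme of corepressor complexes, was lower on both cKO arrays, at 1229 ± 98.4 in control and 1003 ± 115 in cKO (SD, n = 2). Its arrays read 1159 and 1298 in control and 1085 and 922 in cKO, and the log2 difference was -0.29 (SE 0.24, adjusted p = 0.99999). With 1 array left out, this difference ran from -0.18 to -0.41. Its sign could not change there, because the arrays of the groups did not overlap. Hdac2, its close paralogue, did not share that: it read 1494 and 1698 in control and 1869 and 1479 in cKO, with all 3 kept sets slightly higher in cKO. Hdac3, the enzyme of the NCoR complexes, read 314 and 394 in control and 318 and 297 in cKO.

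The class IIa deacetylases bind Mef2 factors in muscle. Hdac4 read 352 and 469 in control and 388 and 250.3 in cKO, and 1 of its 2 dimmer kept sets was lower on both cKO arrays, at 315 and 422 against 299 and 239. Hdac5 read 262 and 246 in control and 160.1 and 368 in cKO, with both extremes in the cKO group. No member past the filter was at least 2-fold brighter on the arrays numbered 1 in both groups, as 3.08% of all genes were. Hdac7 read 124 and 95.8 in control and 131 and 91.8 in cKO on 1 set and 194 and 96.3 against 122 and 43.5 on the other, brighter on the arrays numbered 1 in each group. Hdac9, under the filter, read 68.8 and 17.2 in control and 58.7 and 16.3 in cKO, 3.85-fold and 3.45-fold brighter on number 1 in control and cKO. The summed endothelial signal differed 9.14-fold and 7.35-fold by number in the same arrays, and whether endothelial RNA contributes to these 2 genes was not tested.

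Sirtuins, the NAD-dependent deacetylases, overlapped in all 3 members. Sirt1, linked to the metabolic state of satellite cells, read 825 and 401 in control and 678 and 559 in cKO, and Sirt2, mainly cytoplasmic, read 980.3 and 1844 in control and 1209.9 and 1143 in cKO. The control arrays of these genes were the highest and the lowest of the 4, in opposite order. Sirt3, a mitochondrial enzyme, read 118 and 158 in control and 130.2 and 157 in cKO.

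Arginine methyltransferases varied more between replicates than between groups. Prmt1, which makes most of the asymmetric dimethylarginine in cells, read 976 and 1648 in control and 1331 and 816 in cKO. Prmt5, the main enzyme of symmetric dimethylation, read 130.5 and 352 in control and 221 and 209.8 in cKO: the cKO arrays lay between the controls, and the log2 difference was 0.0063 with an interval from -1.15 to 1.16. Carm1, a coactivator that methylates Pax7 in satellite cells, read 645 and 828 in control and 738 and 405 in cKO, low on cKO 2 alone. All 3 genes read more on cKO 1 than on control 1 (median log2 difference 0.45), and less on cKO 2 than on control 2 (median -1.01).

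Acetyltransferases overlapped between the groups in all 4 members, and Kat2a had the largest log2 difference. The general coactivators Crebbp and Ep300 read 3685 and 3218 in control and 3289 and 3318 in cKO, and 783 and 763 in control and 749 and 769 in cKO. Kat2b, which acts with Myod1, read 856 and 653 in control and 615 and 893 in cKO, and its group means were equal within 1 signal unit. Kat2a, the catalytic subunit of the SAGA complex, read 255 and 661 in control and 361 and 277 in cKO, and its other sets 161 and 330.0 against 215 and 155, and 153 and 319 against 174 and 92.6. Control 2 was the brightest array in all 3 sets. All 4 genes were lower in cKO by their estimates (median -0.043), but Crebbp, Ep300 and Kat2b were higher with either scaling.

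The SWI/SNF members, remodellers that slide or evict nucleosomes, overlapped as well. The alternative motor subunits Smarca2 and Smarca4 read 1418 and 1346 in control and 1213 and 1886 in cKO, and 620.5 and 575 in control and 597 and 391 in cKO. Array cKO 2 was the brightest for Smarca2 and the dimmest for Smarca4. Smarcd3, the Baf60c subunit that partners with Myod1, read 207 and 342 in control and 245 and 172 in cKO, with control 2 highest and cKO 2 lowest.

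**Figure D3:**
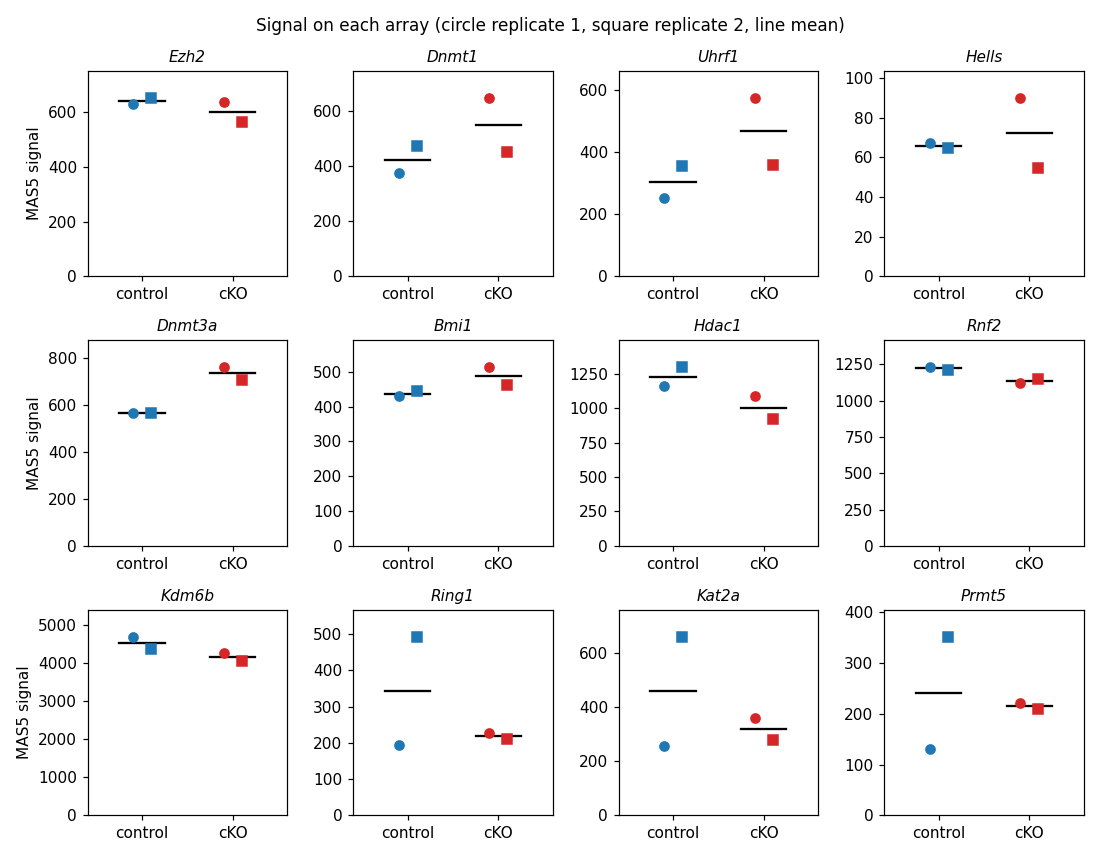
MAS5 signal (vertical axis, from 0) on each array for 12 members; circles are replicate 1, squares replicate 2 and lines group means. Dnmt3a and Bmi1 are higher and Hdac1 lower on both cKO arrays, Uhrf1, Dnmt1 and Hells peak on cKO 1, and Ring1, Kat2a and Prmt5 peak on control 2.

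Single arrays stood apart for many members. Control 2 was the brightest of the 4 arrays for 19 of 43 members (44.2%) and for 39.8% of all genes, and cKO 2 the dimmest for 15 (34.9%) and for 36.9% of all genes. Ring1, Kat2a, Prmt5, Sirt2, Prmt1 and Smarcd3 were among those brightest on control 2. Set against the control of the same number, cKO 1 was the brighter array for 25 of 43 members and cKO 2 for 14. A total of 12 members had the same sign in both, 27.9% of the 43, and 40% of all genes did.

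**Figure D4:**
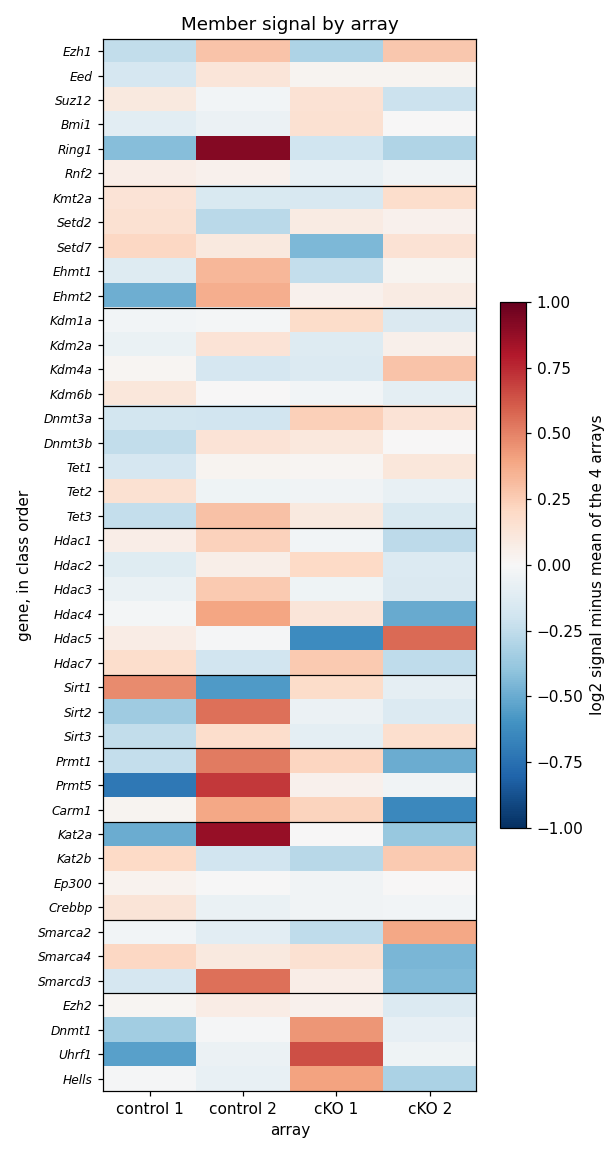
Log2 signal minus the mean of the 4 arrays (colour) for the 43 members (rows, classes separated by lines) on each array (columns). The strongest single cells are Ring1 and Kat2a on control 2, and Uhrf1 and Dnmt1 are brightest on cKO 1.

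Other genes of the same machinery, listed by function, did not pass the test either. Of 131 listed, 122 had a probe set and 114 passed the filter: 46 were higher and 68 lower in cKO, with a median of -0.05, and 0 passed after adjustment. The arrays did not overlap for 11 that were higher (9.65%, against 8.53% of all genes) and 20 that were lower (17.5%, against 12.1%); whether these shares differ from the background was not tested. The 3 higher ones with the smallest limma p were Nsd1, a lysine 36 methyltransferase, at 1035 and 966 in control and 1365 and 1256 in cKO, and the chromodomain helicases Chd9, at 525 and 597 in control and 805 and 693 in cKO, and Chd7, at 1243 and 1120.5 in control and 1309 and 1631 in cKO. The 3 lower ones were Mta2, a subunit of the NuRD deacetylase complex, Hdac6, the cytoplasmic tubulin deacetylase, and Smyd5. Mta2 read 531 and 615 in control and 377 and 314 in cKO, Hdac6 read 351 and 278 in control and 200.4 and 185 in cKO, and Smyd5 742 and 691 in control and 448 and 525 in cKO.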

How the data were processed

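Total RNA of sorted cells was biotin-labelled by a small sample assay and hybridised to 1 array per sample, per the labels' protocols. The authors computed and deposited intensity values with MAS5, on a linear scale, per the submitters' processing notes; the labels name no target signal, and no detection calls were used. Of 45101 probe sets, 64 AFFX controls were left out. The platform annotation gave 34945 probe sets 1 gene symbol, 932 several and 9160 none; members were matched by single symbol, and a mouse gene table found 34741 of them by identifier and changed 0 symbols. Probe sets with the suffix _s_at or _x_at can read related sequences, and levels were not compared between genes.

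Signals were analysed as log2(value + 1) without further scaling, so differences of dim genes are understated, though only slightly for those past the filter. The filter kept 22519 probe sets and 10140 genes, each represented by its brightest probe set. Groups were compared with limma 3.58.1 in R 4.3.3 (lmFit, eBayes with an intensity trend, no block; 2 residual and 5.32 prior degrees of freedom) with Benjamini-Hochberg adjustment over all probe sets at 0.05. All p-values are 2-sided. The steps were tested on simulated arrays. The precision is limited by the number of arrays, 2 a group. Promoter windows are RefSeq's. Members and lists were chosen with earlier results of these data known. Named were every member, Calcr and Mki67, the 3 other chromatin genes per direction with the smallest p among those without overlap, and the 3 dividing-cell transcripts with the smallest p; genes given as examples beside these were chosen after their values were seen.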

Additional observations from a re-analysis of the deposited data

How the results depend on the processing

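Alternatives changed scaling, pseudocount, filter, intensity trend, probe set choice, the replicate block and the arrays included. No member was called under any of these with all arrays. The probe sets called numbered 0, and 5 with the replicate block, none of them a member; leaving out 1 array gave 0 to 5 (5 without cKO 1, 1 without control 1). At an unadjusted p under 0.05 there were 163 probe sets, against 878 without a filter, 88 with the filter at the 75th percentile, 473 with the replicate block and 104 with only unsuffixed probe sets, and 163 to 697 with 1 array left out (697 without cKO 1, 571 without control 1, 267 without control 2). The check of pairing gave a correlation of 0.43 between deviations of same-numbered arrays over 22519 probe sets; the labels do not say that a number marks a shared batch, and 2 pairs are too few to decide. Members at an unadjusted p under 0.05 were 1 higher with unsuffixed probe sets (Kdm6b), and with 1 array left out 0 higher and 0 to 2 lower, the 2 being Ring1 and Kat2a without control 1, where control 2, the brightest array for both, is the lone control and the observed spread is that of the cKO arrays alone. Members without overlap became 5 higher with centring and 5 lower with the mean over probe sets. With 1 array left out they became 7 to 14 higher and 10 to 21 lower, where 1 lone array makes overlap rarer by construction. Shares of all genes without overlap are given for the main setting only (8.53% higher and 12.1% lower). The counts under the other settings thus have no matching background, and no excess of members is read from them. The median of all members was 0.052 with centring, and that of the members outside the dividing-cell group 0.018 with quantile normalization, 0.040 with centring and -0.10 with the mean over probe sets, and -0.094 to 0.025 with 1 array left out. Kdm6b turned from -0.12 to 0.70 with unsuffixed probe sets and to 0.11 with the mean over its sets, since its sets differ in sign. In all, 30 of 43 members kept their sign under every setting with all arrays, 8 changed it with a scaling and 27 when some array was left out. Under the 2 scalings the median of all genes moved from -0.04 to 0.016 and 0.050.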
